A study of Mus musculus with 13 samples.

Results

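The 10 genes described here encode Notch ligands, Notch receptors and transcription factors that Notch induces. They were taken by symbol, as Dll4, Jag1 and Jag2, Notch1, Notch2 and Notch4, and Hes1, Hey1, Hey2 and Heyl, out of 24984 genes listed for tumor endothelial cells (ECs) and 24421 genes listed for sprout ECs. RNA-Seq was measured in 13 libraries of mouse ECs to ask what the loss of Apelin, a secreted peptide encoded by Apln, changes in ECs. Tumor ECs were sorted by FACS as CD31+/CD105+ cells without CD45, the surface protein of leukocytes, 100 cells per library, from tumors of E0771 cells (a mouse mammary carcinoma line) at day 25 after orthotopic injection into C57BL/6J mice. In the Apelin-depleted group, Apln−/− mice, which lack the gene in all cells from the germline, carried shApln tumor cells (n = 3). In the Apelin wild-type group, Apln+/+ mice carried shRenilla tumor cells (n = 6). Host and tumor cells were thus depleted together and cannot be told apart, and the ages of the mice are not given in the sources used here. Sprout ECs were sorted as CD31+ cells from embryoid bodies (EBs) of female mouse embryonic stem cells (mESCs) on C57BL/6x129, which carry a gene trap between exons 1 and 2 of Apln. The trap lies in sense in Apln STOP cells (n = 2) and in antisense, after infection with a retrovirus encoding Cre and mCherry, in their sister Apln GO cells (n = 2). All sprout EBs were moved to collagen at day 8 and received 30 ng/ml VEGFA164. By the legends of the study, GO EBs also received 1000 nM Apelin Pyr13 and STOP EBs received DMSO, so genotype, Cre and added Apelin differed together and cannot be told apart.

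Notch is a receptor on the cell surface that is cut when a ligand on a neighbouring cell binds it. Its freed intracellular domain enters the nucleus, joins the DNA-binding protein RBPJ and a coactivator of the Mastermind-like (MAML) family, and switches on the Hes and Hey repressors and Nrarp, a feedback inhibitor. In growing vessels, VEGF raises Dll4 in the leading tip cell, and Dll4 acting on Notch1 of its neighbours holds them back as stalk cells. Jag1 is known to oppose Dll4 in this choice, Notch4 is the receptor most restricted to ECs, Notch3 is typical of mural cells, and Hey1 and Hey2 are also known for arterial identity.

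All 10 genes are protein-coding, and their positions are given in GRCm38, the build of the deposited counts (mm10), from the GENCODE vM21 annotation. Among the ligands, Dll4 lies at chr2:119325784-119335962 on the plus strand, Jag1 at chr2:137081456-137116644 on the minus strand and Jag2 at chr12:112907819-112929776 on the minus strand. Among the receptors, Notch1 lies at chr2:26457903-26516663 on the minus strand, Notch2 at chr3:98013527-98150361 on the plus strand and Notch4 at chr17:34564268-34588503 on the plus strand. Among the targets, Hes1 lies at chr16:30064384-30067796 on the plus strand, Hey1 at chr3:8663359-8667256 on the minus strand, Hey2 at chr10:30832359-30842801 on the minus strand and Heyl at chr4:123233556-123249875 on the plus strand.

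The stretches before the starts of Dll4, Hey2 and the feedback target Nrarp are shown because these genes fell together in sprout ECs. They are from RefSeq (GRCm38.p6), in which 7 of the 10 genes had a promoter entry and Hes1, Hey1 and Heyl had none, and are written 5′ to 3′ on the strand of the gene. Capitals mark the core letters of the RBPJ motif (TGGGAA, or TTCCCA when read on the other strand) and the E-box that Hey repressors bind (CACGTG, the same on both strands). Dll4 is shown over 250 bases at chr2:119325534-119325783, Nrarp over 250 bases at chr2:25180508-25180757, both on the plus strand, and Hey2 over 232 bases at chr10:30842802-30843033 on the minus strand.
Dll4: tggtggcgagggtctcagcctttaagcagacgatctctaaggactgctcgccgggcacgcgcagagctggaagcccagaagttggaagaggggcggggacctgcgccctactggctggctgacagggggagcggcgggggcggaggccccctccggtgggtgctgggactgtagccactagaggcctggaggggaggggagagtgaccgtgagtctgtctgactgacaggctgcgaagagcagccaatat
Hey2: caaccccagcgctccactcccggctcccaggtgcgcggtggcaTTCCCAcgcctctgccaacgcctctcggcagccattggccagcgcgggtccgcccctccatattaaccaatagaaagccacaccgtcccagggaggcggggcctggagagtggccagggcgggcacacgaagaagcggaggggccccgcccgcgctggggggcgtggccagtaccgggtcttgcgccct
Nrarp: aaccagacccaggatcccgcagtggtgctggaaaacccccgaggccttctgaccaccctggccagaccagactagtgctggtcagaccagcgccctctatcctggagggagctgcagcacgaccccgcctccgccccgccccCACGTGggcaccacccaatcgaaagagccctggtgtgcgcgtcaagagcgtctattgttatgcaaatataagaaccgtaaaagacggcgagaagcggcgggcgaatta
Within 250 bases before the RefSeq start, TTCCCA occurred once in Hey2, 189 bases before the start of the gene in GENCODE and 207 bases before that in RefSeq, which lies further into the gene. CACGTG occurred once in Nrarp, 108 bases before its start. Neither set of letters was in the windows of Dll4, Notch1, Notch2, Notch4, Jag1 or Jag2. Of 32851 RefSeq promoter windows of this length, 21.6% held the RBPJ letters on either strand and 6.02% held CACGTG, so these matches describe the sequence only.

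Total counts lay between 12327030 and 16804071 per sprout library and between 4661044 and 14455093 per tumor library, and 3 counts were equal to 0.177 to 0.244 CPM (counts scaled by library size) in the former and 0.211 to 0.596 CPM in the latter. Nothing in the sources used here says that replicates of a group came from separate cultures, and p-values measure the spread between these libraries. Counts of Apln itself were 71, 121 and 20 where Apelin was depleted, against 4262 to 6619 in wild-type ECs. In sprout ECs Apln did not separate the labels in the direction of the trap, with 66.1 and 80.2 CPM in STOP replicates 1 and 2 and 58.2 and 65.9 CPM in GO replicates 1 and 2, so the groups are called by their labels throughout.

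In sprout ECs, Dll4, Hey1 and Hey2 fell in the libraries labelled STOP. Dll4 was 3.61-fold lower, Hey1 was 3.47-fold lower and Hey2 was 2.97-fold lower, and the 3 genes passed both thresholds (adjusted p under 0.05, and a log2 fold change of more than 1 in size). Notch1 and Notch4 were 1.895-fold and 1.77-fold lower and passed the adjusted p but not the fold threshold. Heyl passed the fold threshold but not the adjusted p, and Notch2, Jag1, Jag2 and Hes1 passed neither. The 12 endothelial markers, genes that ECs in general express, were lower in the same libraries (median log2 fold change −1.96), and relative to those markers Dll4, Hey1 and Hey2 no longer differed beyond error. The counts were tested with edgeR (quasi-likelihood test, p adjusted over 14557 genes), which called 3.03% of all genes lower and 0.852% higher. Of the 10 Notch genes 3 were called lower and 0 higher, and 5 had an unadjusted p under 0.05, as did 26.7% of all genes. DESeq2, which called 4.68% of genes lower and 1.47% higher, called the same 3.

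Dll4, the Delta ligand of sprouting ECs, was measured at 52.1 and 92.8 CPM in STOP replicates 1 and 2 and at 282 and 239.5 CPM in GO replicates 1 and 2. The means were 72.5 ± 28.7 CPM (SD, n = 2) and 261 ± 30.2 CPM (SD, n = 2), and both STOP libraries lay well below both GO libraries. The log2 fold change was −1.85 (SE 0.29, 95% interval −2.58 to −1.12, edgeR adjusted p = 0.0301). With a block for replicate number Dll4 was not called. It lost the call when GO replicate 1 was left out (−1.73, adjusted p = 0.243) or GO replicate 2 was left out (−1.96, adjusted p = 0.0851). The Jagged ligands did not pass the test. Jag1 was at 31.2 and 33.3 CPM in STOP and at 59.6 and 33.0 CPM in GO replicates 1 and 2, so only GO replicate 1 stood apart and the groups overlapped. Jag2 was at 23.2 and 20.3 CPM in STOP and at 26.0 and 26.5 CPM in GO, without overlap. Their log2 fold changes were −0.53 (SE 0.28, 95% interval −1.21 to 0.16, edgeR adjusted p = 0.285) for Jag1 and −0.27 (SE 0.19, 95% interval −0.70 to 0.16, adjusted p = 0.390) for Jag2.

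Of the receptors, Notch1, which receives the Dll4 signal in stalk cells, was at 141 and 160.5 CPM in STOP replicates 1 and 2 and at 321 and 250.2 CPM in GO replicates 1 and 2. Notch4 was at 104 and 130.1 CPM in STOP and at 201 and 213 CPM in GO. Neither gene overlapped between the groups. Their log2 fold changes were −0.92 (SE 0.16, edgeR adjusted p = 0.0222) for Notch1 and −0.82 (SE 0.15, edgeR adjusted p = 0.0240) for Notch4. With each library left out in turn, Notch1 ranged from −1.09 to −0.73 and Notch4 from −0.998 to −0.65. Neither passed the adjusted p without GO replicate 1 (adjusted p = 0.0759 for Notch1 and 0.0666 for Notch4) or without STOP replicate 1 (0.169 and 0.174). Notch2, a receptor of many cell types, was at 86.5 and 92.1 CPM in STOP and at 116 and 87.1 CPM in GO, and its log2 fold change of −0.19 had a 95% interval from −0.57 to 0.20 (adjusted p = 0.507). Without GO replicate 1, the only library above the others, the value for Notch2 was 0.04.

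Of the 4 target genes, Hey1 and Hey2 were called. Hey1 was at 32.6 and 38.4 CPM in STOP replicates 1 and 2 and at 134 and 112 CPM in GO replicates 1 and 2, and its means were 35.5 ± 4.05 and 123 ± 15.8 CPM (SD, n = 2 each). Its log2 fold change was −1.79 (SE 0.16, 95% interval −2.17 to −1.42, edgeR adjusted p = 0.0028), and Hey1 was called whichever single library was left out. Hey2, a related repressor, was lower in level at 3.59 and 5.78 CPM in STOP and 16.6 and 11.1 CPM in GO. Its log2 fold change was −1.57 (SE 0.34, 95% interval −2.37 to −0.78, edgeR adjusted p = 0.0396). With a block for replicate number Hey2 was not called. The call for Hey2 was lost without GO replicate 1 (−1.24, adjusted p = 0.227), without STOP replicate 1 (−1.24, adjusted p = 0.227) or with RSEM expected counts (−1.59, adjusted p = 0.0564).

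Heyl and Hes1 were not called. Heyl, a Hey family member also known from mural cells, varied more within the groups than between them, with 7.52 and 28.8 CPM in STOP replicates 1 and 2 and 69.6 and 22.0 CPM in GO replicates 1 and 2. The log2 fold change of Heyl was −1.35 with an SE of 1.06 (edgeR adjusted p = 0.513), and it was −0.28 without GO replicate 1 and −2.63 without STOP replicate 2. STOP replicate 2 and GO replicate 1, the higher library of each group for Heyl, also held more counts of the fibroblast markers, collagen and matrix genes among them, with a sum of 2946 and 2922 CPM over 7 genes against 460.2 and 609.8 CPM in STOP replicate 1 and GO replicate 2. Their sums over 10 mural markers were 469.7 and 701 CPM against 281 and 307 CPM. The part of these cells in the levels of Heyl, or in those of Jag1 and Notch2, was not tested. Hes1, a target of Notch and of several other signals, was at 40.9 and 37.0 CPM in STOP and at 59.2 and 39.4 CPM in GO, with a log2 fold change of −0.34 (SE 0.21, 95% interval −0.83 to 0.15, adjusted p = 0.332).

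Over the list, 10 of 10 genes had a log2 fold change below 0, with a median of −0.87, against 49.5% of all tested genes and a median of 0.01. The STOP and GO libraries did not overlap for 6 of the 10 genes (Dll4, Jag2, Notch1, Notch4, Hey1 and Hey2), each lower in STOP, where 29.6% of all tested genes were lower without overlap and 31% were higher. With 2 libraries per group such a separation is common.

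**Figure D1:**
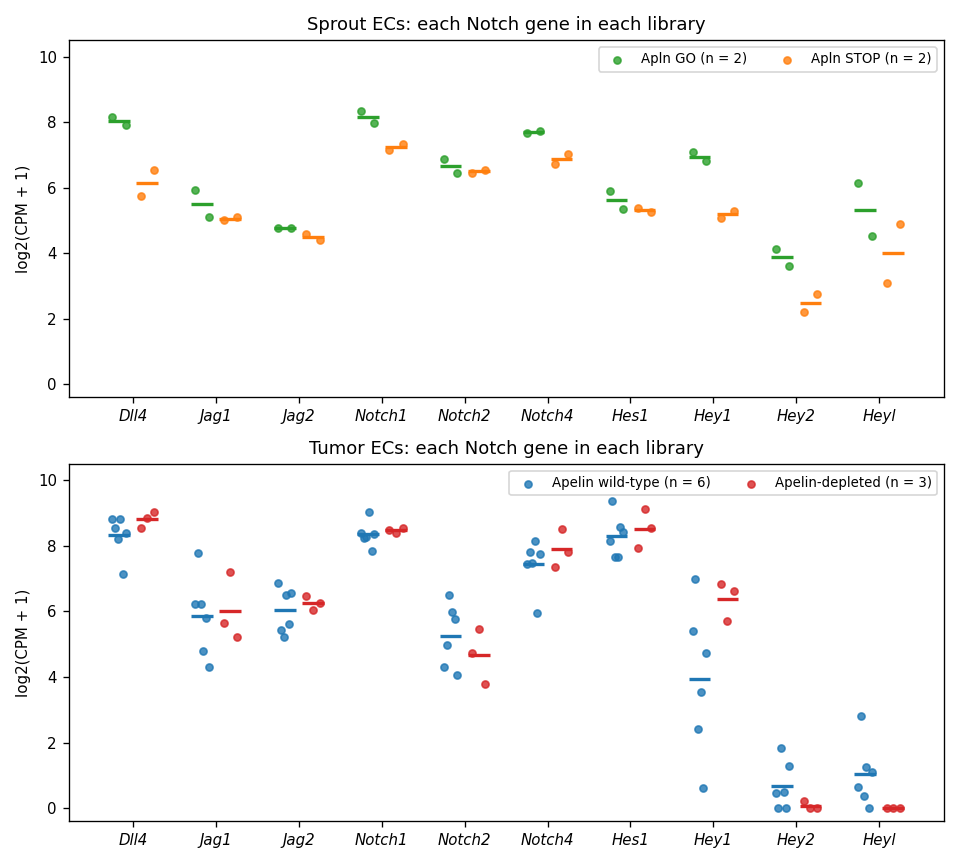
Level of each of the 10 Notch genes in each library, as log2(CPM + 1), in sprout ECs (top) and tumor ECs (bottom). Points are libraries and bars are means of the plotted values. Dll4, Jag2, Notch1, Notch4, Hey1 and Hey2 were lower in STOP than in GO without overlap, as were 29.6% of all genes (31% were higher), and all 10 genes overlapped between Apelin-depleted and wild-type tumor ECs.

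The rest of the pathway was described with a list of 65 further genes (other ligands and Notch3, the glycosyltransferases and proteases that process the receptor, the ubiquitin ligases of the ligands, the nuclear complex, inhibitors and other Hes genes), of which 62 were tested in sprout ECs. Of these, 3 were called lower and 0 higher, and 35 lay below 0 with a list median of −0.08, where 3.03% of all genes were called lower and 49.5% lay below 0. These counts are near those of all genes and are not a result about the list. The 3 genes called were Nrarp, Egfl7 and Maml3, and fewer were called with a block for replicate number. Nrarp was at 28.8 and 45.3 CPM in STOP replicates 1 and 2 and at 137 and 124 CPM in GO replicates 1 and 2, a log2 fold change of −1.82 (SE 0.22, edgeR adjusted p = 0.0097), close in size to those of Hey1 and Dll4. Egfl7, a secreted protein of ECs that can bind Notch and is also among the endothelial markers used here, was at 60.9 and 88.9 CPM in STOP and at 237 and 310.3 CPM in GO (log2 fold change −1.87, SE 0.23, adjusted p = 0.0102). Maml3, a coactivator of the nuclear complex, was at 8.06 and 13.6 CPM in STOP and at 34.7 and 24.1 CPM in GO (log2 fold change −1.45, SE 0.31, adjusted p = 0.0410).

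All 10 tested genes for the proteases that cut Notch, among them Adam10 and the presenilins of the gamma-secretase, lay below 0 with a median of −0.49, against 49.5% of all genes and a median of 0.01, and 0 passed both thresholds, where 3.03% of all genes were called lower. Furin, which cuts the receptor on its way to the surface, passed the adjusted p alone at −0.83 (SE 0.15, edgeR adjusted p = 0.0227). Rbpj, the DNA-binding partner of Notch, was at 160.0 and 173 CPM in STOP and at 95.9 and 124 CPM in GO, a log2 fold change of 0.60 (SE 0.16, edgeR adjusted p = 0.0631) that did not pass. Notch3 was at 185 and 160.0 CPM in STOP and 189 and 146 CPM in GO (0.04, adjusted p = 0.904). Dll1, the other Delta ligand named here, was at 13.6 and 8.23 CPM in STOP and at 7.43 and 9.77 CPM in GO, with overlap.

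Genes of arterial and venous ECs were listed beside the Notch genes, since Notch is known to favour the arterial fate. Of 11 arterial genes tested 6 were called lower and 11 lay below 0, with a median of −1.78. The 5 with the lowest p were Acvrl1 (−1.78), Epas1 (−1.02), Sox17 (−1.98), Efnb2 (−1.55) and Dach1 (−1.87), with edgeR adjusted p-values of 0.0078, 0.0106, 0.0196, 0.0272 and 0.0333. Of 5 venous genes 2 were called lower, the Apelin receptor gene Aplnr at −2.25 (adjusted p = 0.0100) and Flt4 at −1.71 (adjusted p = 0.0024), and all 5 lay below 0, with a median of −0.96. Over all genes tested, 3.03% were called lower and 49.5% lay below 0.

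The endothelial markers moved in the same direction. Of the 12 markers, 11 were called lower and the remaining one, Pecam1 (which encodes CD31, the protein used for sorting), lay at −0.80. Summed over the 12, the level was 599.7 and 841 CPM in STOP replicates 1 and 2 and 2474 and 2397 CPM in GO replicates 1 and 2, and none of the 12 was at 0 in either group. The 8 pluripotency markers, Pou5f1 and Nanog among them, went the other way, with sums of 5553 and 5419 CPM in STOP and 2077 and 3497 CPM in GO. All 8 lay above 0, between 0.59 and 1.28, and 1 was called. Erythroid markers summed to 50.9 and 13.6 CPM in STOP and to 144 and 244 CPM in GO. CD31 is also found on mESCs. In such bulk samples, fewer ECs and less RNA of these genes per EC cannot be told apart.

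**Figure D2:**
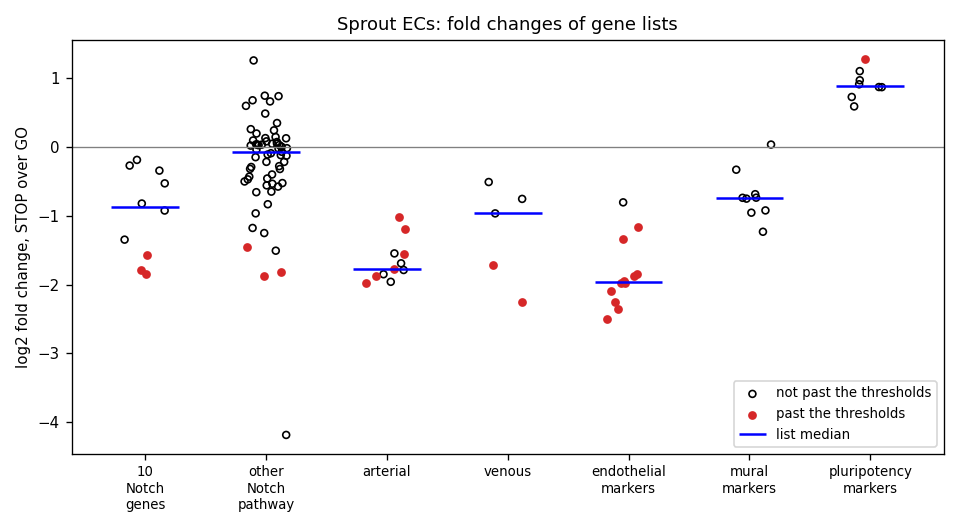
Log2 fold changes (STOP over GO) of gene lists in sprout ECs. Each circle is a gene, filled where it passed both thresholds, and the line is the median of the list. The 10 Notch genes (median −0.87) lay between the rest of the pathway (−0.08) and the endothelial markers (−1.96), and the pluripotency markers lay above 0. Egfl7 is in the pathway and endothelial lists, and Notch3 in the pathway and mural lists.

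The Notch genes were therefore also given per 1000 counts of the endothelial markers. On this scale Dll4 was at 96.8 and 123 in STOP replicates 1 and 2 and at 126 and 115 in GO replicates 1 and 2. Hey1 was at 60.6 and 51.0 in STOP and at 60.0 and 53.6 in GO, Hey2 was at 6.66 and 7.69 against 7.44 and 5.30, and Nrarp was at 53.4 and 60.2 against 61.1 and 59.6. Each of these genes overlapped between the groups. With library sizes set by 11 endothelial markers (Egfl7 left out), the edgeR log2 fold changes were −0.13 for Dll4 (95% interval −0.83 to 0.56), −0.03 for Hey1 (−0.70 to 0.65), 0.17 for Hey2 (−0.72 to 1.07) and −0.09 for Nrarp (−0.76 to 0.59). Together these intervals allow log2 changes between −0.83 and 1.07. The scaling error is shared by all genes of this fit.

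The receptors and the Jagged ligands took the opposite sign on that scale. Notch1 was at 261 and 213 per 1000 endothelial marker counts in STOP and at 143 and 119.9 in GO, and Notch4 was at 194 and 173 in STOP and at 90.0 and 102 in GO. Notch2, Jag1, Jag2 and Hes1 were also higher in STOP without overlap, and these 4 were called higher, with log2 fold changes between 1.26 and 1.597. This scaling moved the median of all genes to 1.79 and called 85.8% of all genes higher and 0.103% lower, so the 4 of 10 called higher are not a result about the Notch genes. All 10 Notch genes lay below the median of all genes on this scale, which repeats their fold changes below 0 given above and is no further result.

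**Figure D3:**
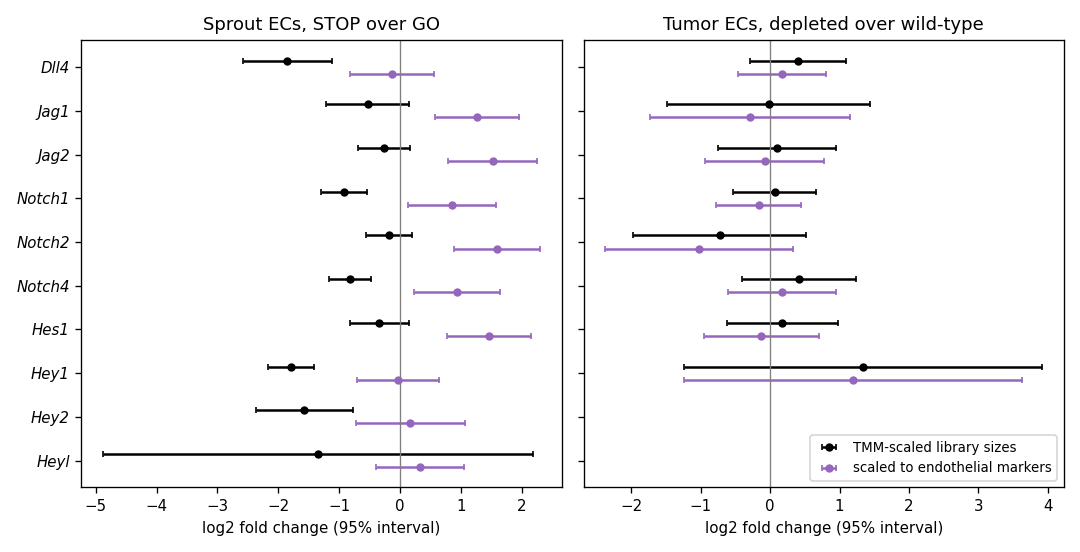
Log2 fold changes of the 10 Notch genes with 95% intervals from edgeR, in sprout ECs (left) and tumor ECs (right). Black points use TMM-scaled library sizes and violet points use library sizes set by endothelial markers. In sprout ECs Dll4, Hey1 and Hey2 moved from below −1.5 to near 0 between the scalings. Hey2 and Heyl were below the filter on low counts in tumor ECs and are not drawn there.

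Levels of different genes can be compared only per length, and for this the TPM deposited for the sprout libraries were used, with the tumor counts divided by the same effective lengths. In GO ECs Dll4 was the highest of the 10, at 135 and 102 TPM in replicates 1 and 2, followed by Hey1 at 100.1 and 74.7 TPM and Hes1 at 67.3 and 40.7 TPM. Notch4 (49.1 and 46.5 TPM) and Notch1 (54.9 and 38.4 TPM) came next and did not differ beyond their spread, and Heyl, Notch2, Jag1, Jag2 and Hey2 followed in that order with medians between 8.61 and 16.02 TPM and overlapping neighbours. In STOP ECs the order opened with Hes1 (median 37.4 TPM), Dll4 (28.7), Notch4 (24.1), Hey1 (22.4) and Notch1 (21.8), each overlapping the next. Hey1 was 1.49 and 1.83 times the level of Hes1 in the GO libraries and 0.529 and 0.676 times in the STOP libraries.

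The shares of the ligands and of the receptors were taken on the same scale. Dll4 made up 80.8% and 81.5% of the summed level per length of 4 ligands (Dll4, Dll1, Jag1 and Jag2) in GO replicates 1 and 2, and 49.3% and 66.5% in STOP replicates 1 and 2. The ratio of Dll4 to Jag1 per length was 7.49 and 10.46 in GO replicates 1 and 2 and 2.54 and 4.30 in STOP replicates 1 and 2. Notch3 made up 23.7% and 21.1% of the summed level of 4 receptors in GO and 37.2% and 30.5% in STOP. The STOP and GO libraries did not overlap in any of these 3 measures, and the first 2 both use Dll4 and Jag1. Of all tested genes, 29.6% were lower and 31% higher in STOP without overlap. The part of the lower endothelial marker levels of STOP libraries in these measures was not tested. In the 9 tumor libraries Dll4 made up between 64.9% and 83.4% of the ligands, and Notch3 made up between 0% and 4.09% of the receptors, below each sprout library.

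**Figure D4:**
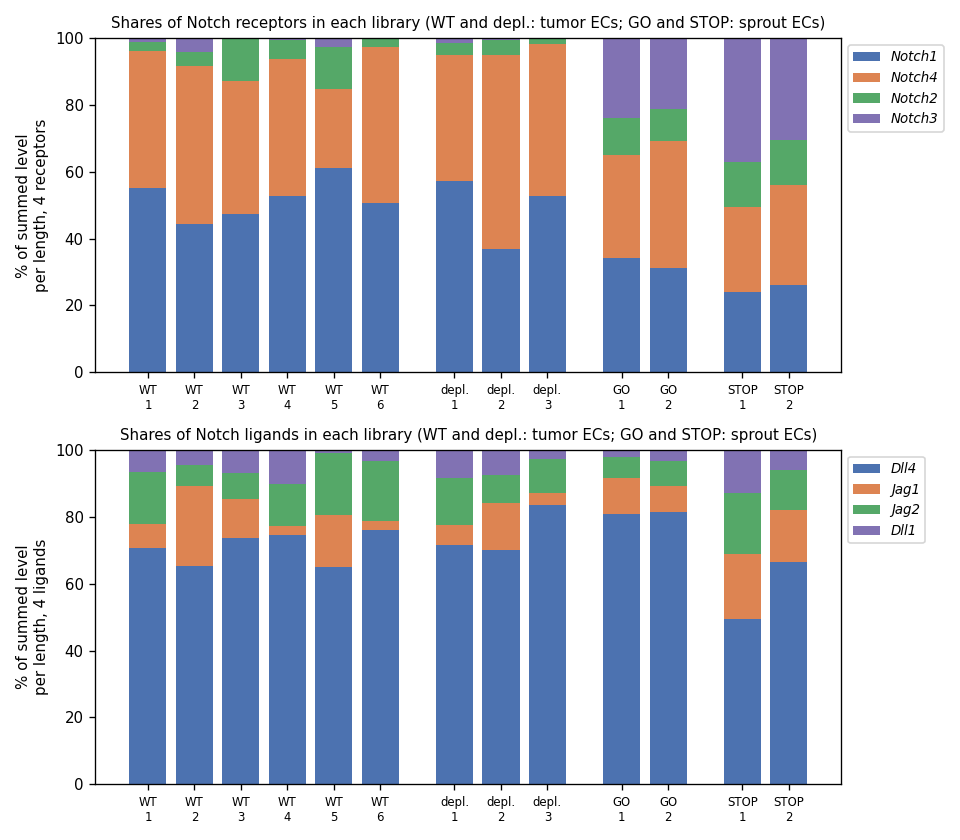
Share of each of 4 Notch receptors (top) and 4 Notch ligands (bottom) in their summed level per length, in percent, for each library. WT and depl. are Apelin wild-type and Apelin-depleted tumor ECs, and GO and STOP are sprout ECs. Dll4 had the largest share of the ligands in each library, and Notch3 held 21.1% to 37.2% of the receptors in the sprout libraries and at most 4.09% in the tumor libraries.

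In tumor ECs, the Notch genes did not separate Apelin-depleted from wild-type libraries. Of the 10 genes 8 passed the filter on low counts, and 0 of the 8 were called by edgeR, where the test called 0.00765% of 13073 genes lower (Apln) and 0% higher. None of the 8 had an unadjusted p under 0.05, as 4.81% of all genes had, and DESeq2, which called 0.69% of genes lower and 0.135% higher, called 0 of the 10. The libraries overlapped between the groups for each of the 10 genes, where 1.27% of all tested genes were lower and 1.06% higher without overlap, and 2 of the 8 lay below 0, against 51.9% of all genes.

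Dll4 was at 377, 459.6 and 519.9 CPM in Apelin-depleted replicates 1 to 3, and its lowest, median and highest values in the wild-type libraries were 141, 358 and 453 CPM. Wild-type replicates 3, 5 and 6 lay below each depleted library, replicate 5 the lowest, and replicates 1, 2 and 4 lay within the range of the depleted ones. The log2 fold change was 0.40 (SE 0.33, 95% interval −0.29 to 1.09). Jag1 ranged more widely, at 49.4, 145 and 36.3 CPM in depleted ECs and from 18.9 (median 63.8) to 222 CPM in wild-type ECs, with a log2 fold change of −0.02 (95% interval −1.48 to 1.44). Jag2 was at 87.9, 65.4 and 75.3 CPM in depleted ECs and between 36.4 and 117 CPM (median 68.6) in wild-type ECs, with a log2 fold change of 0.10 (95% interval −0.75 to 0.95).

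Notch1 was at 354, 336 and 375 CPM in Apelin-depleted replicates 1 to 3, and at 229, 319 and 526 CPM as the lowest, median and highest of the wild-type libraries. The highest was replicate 4, in which 12 leukocyte markers summed to 863 CPM, against 50.8 to 115 CPM in the other wild-type libraries and 44.7 to 1285 CPM in the depleted ones, and their part in the level of Notch1 was not tested. The sort left out cells with CD45, and Ptprc, which encodes CD45, was at 60.0 CPM in this library, at 0.293 to 16.9 CPM in the other wild-type libraries and at 0 to 39.6 CPM in the depleted ones. The log2 fold change of 0.07 for Notch1 had a 95% interval from −0.53 to 0.66. Notch4 was at 162, 369 and 225 CPM in depleted ECs and between 61.5 and 282 CPM (median 196) in wild-type ECs, with a log2 fold change of 0.42 (95% interval −0.40 to 1.24). Notch2 was low in both groups, at 25.5, 43.4 and 12.8 CPM in depleted ECs and between 15.7 and 90.7 CPM (median 42.1) in wild-type ECs. Its log2 fold change was −0.73 (95% interval −1.97 to 0.51).

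Hey1 had the largest ratio of highest to lowest CPM of the 8 tested genes over the wild-type libraries. It was at 114, 51.1 and 98.5 CPM in Apelin-depleted replicates 1 to 3, whereas the wild-type libraries ranged from 0.521 CPM in replicate 5 (3 counts) through a median of 18.2 to 125 CPM in replicate 2 (1281 counts). Of the wild-type libraries, replicate 2 alone lay above the lowest depleted library. Its log2 fold change was 1.34 (SE 1.14, 95% interval −1.24 to 3.92), an interval that holds no change and large changes alike, and it was 2.41 without wild-type replicate 2. The same libraries were at the ends of the range for a list of 12 arterial genes, which summed to 2977 CPM in wild-type replicate 2, to 979.7 CPM in replicate 5, and to between 1144 and 2150 CPM in the other 7 tumor libraries. Of the 12 genes, 6 were highest in replicate 2 and 7 were lowest in replicate 5. Gja5, a connexin of arterial ECs, was at 633 CPM in replicate 2, at 0.347 CPM (2 counts) in replicate 5 and at up to 132 CPM in the others, and the part of arterial ECs in the level of Hey1 was not tested. Between the groups 0 of the 12 arterial genes were called by edgeR or DESeq2, and none reached an unadjusted p of 0.05. Hes1 was abundant in each library, at 244, 554 and 369.7 CPM in depleted ECs and between 201 and 659 CPM (median 312) in wild-type ECs, with a log2 fold change of 0.17 (95% interval −0.63 to 0.98). Nrarp, at 88.4, 212 and 201 CPM in depleted ECs and between 66.5 and 232 CPM (median 157) in wild-type ECs, had a log2 fold change of 0.18 (95% interval −0.65 to 1.01).

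By Dixon's limit for 6 values, the highest wild-type library stood apart from the other 5 for 4 of the 10 genes (Jag1, Notch1, Hey1 and Heyl), where it did so for 15.1% of all tested genes, and the lowest did so for 0 of the 10 and 0.665% of all tested genes.

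Hey2 and Heyl were near the limit of detection in tumor ECs. Hey2 had 1, 0 and 0 counts in Apelin-depleted replicates 1 to 3 and 2, 0, 26, 2, 0 and 10 counts in wild-type replicates 1 to 6. Heyl had 0 counts in each depleted library and 3, 62, 3, 7, 0 and 8 counts in wild-type replicates 1 to 6. A library with 0 counts allows up to 0.211 to 0.510 CPM in the depleted group, and the wild-type libraries lay between 0 and 6.06 CPM for Heyl, so most were not far from that limit. Without the filter on low counts Heyl had an unadjusted p of 0.0162 and an adjusted p of 0.586 in edgeR, and an adjusted p of 0.147 in DESeq2. Wild-type replicate 2, the highest library for Heyl, also had the highest sums of mural markers (481 CPM, against 80.98 to 272 CPM in the other 8 libraries) and of fibroblast markers (5076 CPM, against 42.0 to 220 CPM), and it had the most counts of Notch3 (238, against 0 to 67). The part of these cells in the counts of Heyl was not tested.

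Of the 65 further pathway genes, 57 were tested in tumor ECs and 0 were called, the median of their log2 fold changes was −0.03, and 1 (Fbxw7, a ubiquitin ligase that marks the Notch intracellular domain for breakdown, at −0.98) had an unadjusted p under 0.05 in edgeR. Dll1 was at 43.2, 48.5 and 16.5 CPM in depleted ECs and between 1.91 and 61.5 CPM in wild-type ECs. Rbpj was at 5.27, 6.96 and 17.7 CPM in depleted ECs and between 7.07 and 46.0 CPM in wild-type ECs, and Maml3 was at 35.9, 25.9 and 92.5 CPM against 47.2 to 97.5 CPM. These genes overlapped between the groups as well. Endothelial markers summed to between 8761 and 12587 CPM in depleted libraries and between 7682 and 10539 CPM in wild-type libraries, and scaling by them left 0 of the Notch genes called.

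In wild-type tumor ECs the order per length was Hes1 (median 394 TPM), Dll4 (200.5), Notch1 (64.3), Notch4 (57.1), Jag2 (30.4), Jag1 (20.8), Hey1 (15.3), Notch2 (7.18), Heyl (0.329) and Hey2 (0.299). Hes1 was above Dll4, and Dll4 above Notch1, in each of the 6 libraries, and from Dll4 down each gene overlapped the next in range. In Apelin-depleted ECs Hes1 (459 TPM) and Dll4 (257 TPM) again led, and Hey1 came next with a median of 79.6 TPM. Hey1 was between 0.00088 and 0.124 times the level of Hes1 in the wild-type libraries and between 0.0601 and 0.304 times in the depleted libraries, which overlap.

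Among the tumor libraries, 5 pairs of genes were compared on log2(CPM + 1). Dll4 and Notch4 were correlated over the 9 libraries by Pearson (r = 0.87, exact permutation p = 0.0130, adjusted over 5 pairs 0.0359) but not by rank (Spearman rho = 0.68, exact permutation p = 0.0503, adjusted 0.252). Dll4 and Hey1 were also correlated by Pearson (r = 0.78, exact permutation p = 0.0144, adjusted 0.0359) but not by rank (rho = 0.55, exact permutation p = 0.133, adjusted 0.332). Wild-type replicate 5 was the lowest library for Dll4, Notch4 and Hey1. Neither relation held without it and Apelin-depleted replicate 3, the 2 libraries farthest from the median of Dll4, where r was 0.54 for Dll4 and Notch4 (exact permutation p = 0.208) and 0.36 for Dll4 and Hey1 (p = 0.418). Within the 6 wild-type libraries, which keep replicate 5, r was 0.92 (exact permutation p = 0.0417, adjusted 0.163) and 0.77 (exact permutation p = 0.0653, adjusted 0.163). No relation was found for Dll4 and Jag1 (r = 0.03), for Notch1 and Hes1 (r = −0.42, rho = −0.43, exact permutation p = 0.257 and 0.250) or for Heyl and Notch3 (r = 0.54, rho = 0.26, exact permutation p = 0.141 and 0.495). The values for Dll4 and Jag1 were rho = 0.05, with exact permutation p-values of 0.941 and 0.912.

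**Figure D5:**
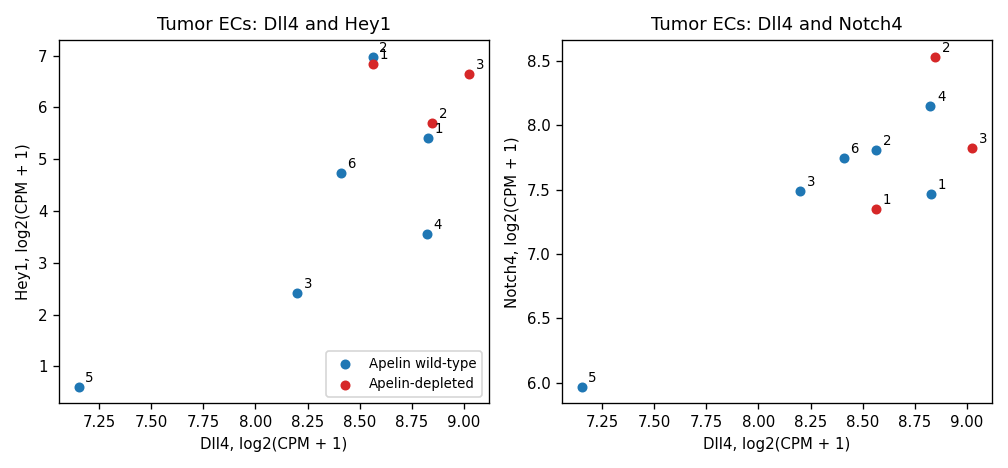
Dll4 against Hey1 (left) and Notch4 (right) in the 9 tumor libraries, on log2(CPM + 1), with replicate numbers beside the points. Wild-type replicate 5 lies alone at the lower left of both plots.

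The genes most like 3 of the Notch genes were sought by Pearson r over the same 9 libraries among 9271 other genes with a mean of at least 10 CPM, as a description. For Dll4 these were Gmppb (0.97), Osgep (0.97) and Chmp2b (0.96), for Hey1 they were Csad (0.96), Map2k3 (0.96) and Tsc22d3 (0.95), and for Notch1 they were Sap130 (0.90), Tns2 (0.88) and Kit (0.87).

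The difference between the effects in tumor and sprout ECs was tested in 1 fit of all 13 libraries, as the log2 fold change in tumor ECs minus that in sprout ECs. Dll4 had the lowest p of the 10, with a difference of 2.21 (SE 0.55, 95% interval 1.06 to 3.36, unadjusted p = 0.0008). After adjustment over 15762 genes it did not pass (edgeR adjusted p = 0.226, DESeq2 adjusted p = 0.0859). Of the 10 genes 0 were called, where edgeR called 0.00634% of all genes lower and 0% higher, and 0 were called by DESeq2, which called 0.162% lower and 0.391% higher. Notch1 differed by 0.94 (95% interval 0.03 to 1.85), Notch4 by 1.19 (−0.12 to 2.503), and Hey1 by 3.08 (−1.01 to 7.16), none past adjustment. No difference is given for Hey2 or Heyl, which are among the 10 genes of this fit but were below the filter in the main fit of tumor ECs. Heyl had 0 counts in each Apelin-depleted library, and Hey2 had at most 1. The 12 endothelial markers differed by a median of 2.26, close to the value for Dll4, and with library sizes set by these markers the difference for Dll4 was 0.30 (95% interval −0.76 to 1.37). That scaling called 22.7% of all genes lower, and of the 10 genes it called 1, Heyl, from which nothing is read because of its 0 counts. The sets also differed in the sort, the library protocol and the counting of reads, which cannot be told apart from the setting of the ECs.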

How the data were processed

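RNA-Seq libraries of sorted mouse ECs were grouped by their labels, and the treatment of the sprout EBs was taken from the legends of the study. The members and the gene lists were chosen with earlier results of these data known. For tumor ECs the authors aligned single-end reads to mm10 with STAR and deposited whole-number counts from featureCounts (Subread 1.6.2). For sprout ECs they deposited HTSeq 0.6.1p1 counts after STAR 2.5.0a, and RSEM 1.2.25 expected counts, effective lengths and TPM. The submitters' processing notes also list Bowtie2 2.3.4.1, Trim Galore 0.5.0, SAMtools 1.9 and DESeq2 1.10.1. The 5 tally lines of the HTSeq files were left out. Reads that did not align uniquely were between 42.6% and 49.6% of the sprout totals, and HTSeq leaves them out.

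Counts were tested with edgeR 4.0.16 (R 4.3.3, TMM, filterByExpr with a minimum count of 10, quasi-likelihood fit with robust dispersions, p adjusted by Benjamini-Hochberg), 1 fit per set of ECs and a joint fit for the difference, and a call needed an adjusted p under 0.05 and a log2 fold change of more than 1 in size. Standard errors are the fold change over the root of F. Fold changes are Apelin-depleted over wild-type and STOP over GO. CPM use TMM library sizes. Tumor levels per length divide counts by the deposited effective lengths and are scaled as TPM. Correlations used scipy 1.17.1. Libraries of a group were compared for files deposited more than once. Each pair differed beyond counting error (chi-square over its degrees of freedom of 19.2 or more), so none was merged, which does not show that they came from separate cultures or animals. The fits were also run on simulated data, the outcome of which is not given here. At least 3 counts were taken as the floor, which covers counting error only.

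The alternatives were DESeq2 1.42.0, its size factors, no filter, no fold-change threshold, the replicate block, library sizes from endothelial markers, rounded RSEM expected counts, a pseudocount of 0.5 in place of 1, and each library left out. The sprout block with crossed numbers was added after seeing the data. Named genes were the 10 members, Notch3, Dll1, Rbpj and Nrarp, other pathway genes past the thresholds, up to 5 arterial or venous genes per direction by p, and the 3 genes most like Dll4, Notch1 and Hey1. Furin, Fbxw7, Gja5 and Ptprc were named after their values were seen.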

Additional observations from a re-analysis of the deposited data

Results flagged for a closer look

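In the 6 wild-type tumor libraries, 4 of the 10 Notch genes had a highest library whose gap to the next was larger, relative to the range, than Dixon's 95% limit for 6 values. Chance passes this limit in about 1 of 20 groups of normally distributed values, but CPM are skewed, and the highest library passed it for 15.1% of all 13073 tested genes. The 4 include Heyl, which was below the filter on low counts, and with so few genes the count is a description. Wild-type replicate 2 was the highest for Jag1 (222 CPM, others 18.9 to 74.2), Hey1 (125 CPM, others 0.521 to 41.7) and Heyl (6.06 CPM, others 0 to 1.39), and this library also had the highest mural and fibroblast marker sums of the 9 and the highest sum of 12 arterial genes (2977 CPM, others 979.7 to 2150). Wild-type replicate 4 was the highest for Notch1 (526 CPM, others 229 to 339), and it had the highest leukocyte marker sum of the 6 (863 CPM, others 50.8 to 115). Over all 9 tumor libraries Apelin-depleted replicate 1 had a higher leukocyte sum (1285 CPM), with Notch1 at 354 CPM.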

How the results depend on the processing

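In tumor ECs 0 of the Notch genes and 0 of the pathway genes were called in each of the 15 alternatives. The sign of small fold changes was not stable there. With library sizes from endothelial markers Notch1 was −0.16, Jag2 −0.077 and Hes1 −0.12, and over the libraries left out in turn Notch1 ranged from −0.024 to 0.24, Jag1 from −0.87 to 0.64, Jag2 from −0.029 to 0.30 and Hes1 from −0.17 to 0.46. Hey1 ranged from 1.08 to 2.41, Notch2 from −1.25 to −0.39 and Notch4 from 0.034 to 0.66. The correlations of Dll4 with Hey1 and Notch4 fell to 0.36 and 0.54 without the 2 libraries farthest from the median and did not pass at 0.77 and 0.92 in the wild-type libraries alone, and that of Heyl and Notch3 turned to −0.13 without 2 libraries.

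In sprout ECs 3 Notch genes were called, 5 with no fold-change threshold, and between 1 and 4 with a library left out, with 1 without GO replicate 1. Scaling to endothelial markers gave 0.85 for Notch1, 1.597 for Notch2, 0.93 for Notch4, 1.26 for Jag1, 1.53 for Jag2, 1.46 for Hes1, 0.17 for Hey2 and 0.33 for Heyl, by construction of the scale. The value for Notch2 ranged from −0.37 to 0.036 over left-out libraries, and that for Heyl from −2.63 to −0.28. With RSEM counts Hey2 had an adjusted p of 0.0564 (edgeR). The pathway genes called were 5 with DESeq2 and 6 with no filter, each lower, and between 1 and 5 with a library left out. With endothelial scaling 52 were called, each higher, where 85.8% of all genes were called higher.

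Replicate numbers did not pair the samples, since same-numbered libraries deviated with r = −0.43 in sprout ECs and r = −0.07, 0.06 and −0.14 in tumor ECs. With the replicate block 1 Notch gene (Hey1) and 1 pathway gene were called in sprout ECs, and over all genes 41 were lower and 3 higher in place of 441 and 124. The edgeR adjusted p was then 0.0900 for Dll4, 0.148 for Hey2, 0.111 for Notch1 and 0.0978 for Notch4. With crossed numbers 4 Notch genes, Heyl now among them, and 7 pathway genes were called, and over all genes 933 were lower and 302 higher.

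For the difference between tumor and sprout ECs, Jag1 turned to −0.34 with the replicate block and ranged from −0.38 to 1.11 over left-out libraries. Scaling to endothelial markers gave −1.01 for Notch1, −0.76 for Notch4, −1.56 for Jag1, −1.605 for Jag2 and −1.59 for Hes1, and 1 Notch gene, Heyl, was then called, as were 22.7% of all genes, with 0 counts of Heyl in each depleted library. With all 9 tumor libraries Hey2 and Heyl had too few counts to pass the filter. Without Apelin-depleted replicate 1 all 10 Notch genes passed it, and without replicate 2 or replicate 3 of that group 9 did. The deepest tumor library (14455093 counts) had 0 of both genes, and the part of depth was not tested.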
